A study of Mus musculus with 18 samples.

Results

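Chromosome 18 carried 1240 H3K27ac peaks in Kap1 KO mouse embryonic fibroblasts (MEFs) and 829 in WT MEFs, together 2069 of the 72711 peaks of the 2 genome-wide lists (36436 in Kap1 KO and 36275 in WT). The members were chosen by the position of the called peaks, as all rows of both lists on this chromosome. A peak was called shared when it had at least 1 bp in common with a peak of the other genotype, and Kap1 KO only or WT only when it had none. The classes thus rest on the same peak calls as the comparison, and all shares, scores and widths below are descriptions without a test. The study addressed KRAB zinc finger genes and their regulation by KAP1, and profiled histone marks in MEFs with and without this protein. WT stands for embryonic fibroblasts of C57BL/6 mice with the Kap1 loxP/loxP genotype, in which the gene is flanked by recombination sites but not excised, and Kap1 KO for MEFs in which Kap1 was deleted. The Kap1 KO cells that the study used for RNA-seq were a single long-term cultured clone. Each genotype was represented by 1 H3K27ac library, so that genotype, clone, passage and library cannot be told apart and the spread between replicates cannot be measured.

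Acetylation of lysine 27 on histone H3 marks the nucleosomes around active promoters and active enhancers. KAP1, the product of Trim28, is a corepressor that KRAB zinc finger proteins bring to DNA, where it recruits the histone methyltransferase SETDB1 and H3K9me3 is laid down. Genes on mouse chromosome 18 include the clustered protocadherins, the desmosomal cadherins, several SMADs and the PDGF receptor beta, so the chromosome holds promoters used by fibroblasts as well as promoters used by epithelia or neurons.

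The scores are those of the MACS peak caller, with a ceiling at 3100 that a few peaks exceed slightly. Their lowest values were 50.01 in the Kap1 KO list and 50 in the WT list, and the number of reads behind a peak is unknown here. Over all protein-coding genes of the genome, 51.9% had a promoter peak in both genotypes. Of 15 fibroblast marker genes, 12 had a promoter peak in both genotypes, Dcn had one in WT alone and Postn and Lum had none. Of the other marker sets, both genotypes had a promoter peak at 1 of 4 genes of macrophages and blood, 2 of 5 of endothelium, 0 of 5 of epithelia, 0 of 5 of ES cells and 0 of 5 of hepatocytes. The markers were not equal between the libraries. Pdgfra, of fibroblasts, had 1141.59 in Kap1 KO and 3100 in WT, and the endothelial Kdr 164.84 in Kap1 KO and 1258.07 in WT. Thy1, the only fibroblast marker with both scores below the ceiling, went the other way, with 1255.68 in Kap1 KO and 774.02 in WT. The epithelial keratin gene Krt8 had a peak in WT alone (1622.36), and Esrrb, of ES cells, in Kap1 KO alone (80.22). Trim28 itself had a promoter peak at 3100 in both lists, and a peak at the start does not test the deletion.

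Kap1 KO MEFs had 149.6 H3K27ac peaks on chromosome 18 for every 100 in WT. The other 18 autosomes together had 98.6 and ranged from 82.8 on chromosome 10 to 110.1 on chromosome 3. On the X chromosome the value was 128.1. The Kap1 KO list had 13.7 peaks per Mb on chromosome 18, against a median of 14.3 over the other autosomes, and 8 of these were below it. The WT list had 9.13 peaks per Mb there, below every other autosome (10.4 to 22.5, median 14.1). Relative to the other autosomes, it was thus the WT count that stood low, and the Kap1 KO count lay within their range. This holds for the counts alone. The median scores and widths of shared pairs, given below, lay outside the range of the other autosomes in both genotypes. Peaks covered 2.97% of the chromosome in Kap1 KO and 1.97% in WT.

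On chromosome 18, 528 Kap1 KO peaks had no overlap with a WT peak, or 42.6% of the 1240 (95% interval 39.8% to 45.4%), where 22.8% of all Kap1 KO peaks of the genome were of this kind. The share was between 14.8% on chromosome 4 and 26.9% on chromosome 6 for the other autosomes. In the opposite direction, 95 WT peaks had no Kap1 KO counterpart, or 11.5% of the 829 (9.37% to 13.8%), against 22.8% of all WT peaks and 17.3% to 30.6% on the other autosomes. The shares fell with the score. Among peaks with a score of at least 500, a limit chosen after seeing the data, 11.3% of the Kap1 KO peaks had no WT peak of any score (4.76% on the other autosomes) and 2.49% of the WT peaks no Kap1 KO peak (4.22%). With the upper 50% of both lists, the WT only share was 5.24% (15.2% on the other autosomes). With all peaks, chromosome 18 was above all 18 other autosomes for Kap1 KO only peaks and below all 18 for WT only peaks. The X chromosome, with 33.7% Kap1 KO only and 15.8% WT only peaks, leaned the same way. The intervals are exact Clopper-Pearson intervals that cover the counting of peaks within these libraries alone.

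**Figure D1:**
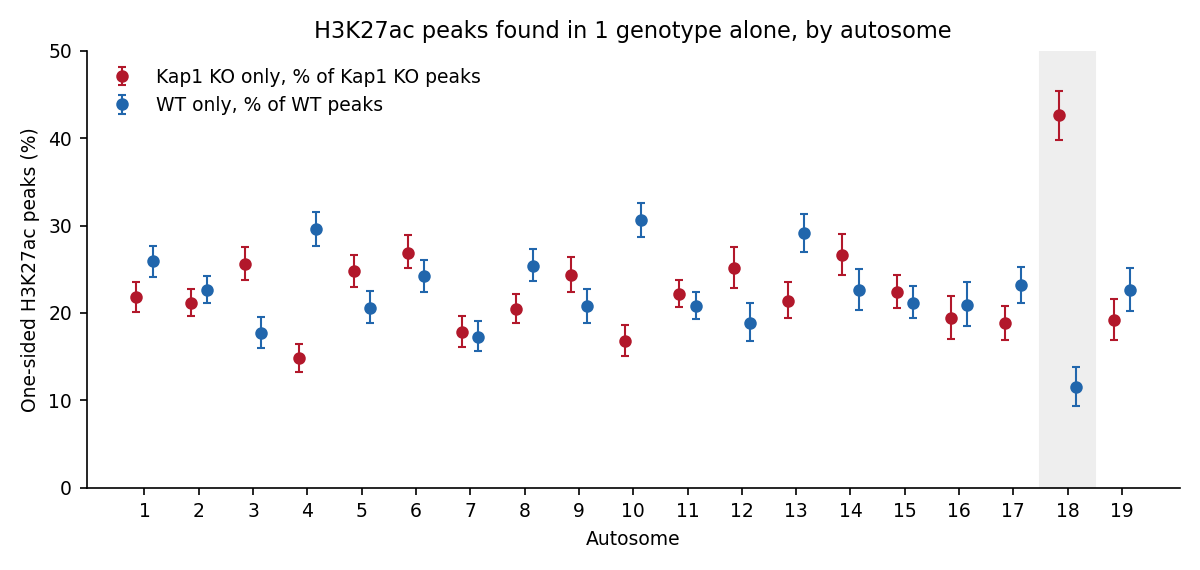
Share of H3K27ac peaks found in 1 genotype alone (y axis, percent of that genotype's peaks) for each of the 19 autosomes (x axis), with exact 95% counting intervals as bars. On chromosome 18 (shaded), the Kap1 KO only share of 42.6% lies above, and the WT only share of 11.5% below, the shares of all other autosomes.

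Peaks no further than 1 kb from a transcript start of the annotation were placed at promoters, and all others were called distal. Of the 528 Kap1 KO only peaks, 36 were at promoters and 492 were distal, a promoter share of 6.82% (4.82% to 9.31%), close to the 7.82% of the other autosomes. Of the 95 WT only peaks, 17 were at promoters and 78 distal, a promoter share of 17.9% (10.8% to 27.1%), where the other autosomes had 13.4%. Shared peaks were much more often at promoters, with 289 of 712 in Kap1 KO (40.6%) and 292 of 734 in WT (39.8%).

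The surplus in Kap1 KO relative to WT was present in both places. Kap1 KO only peaks made up 11.1% of the 325 Kap1 KO promoter peaks of the chromosome (5.18% in the genome and 2.97% to 6.24% on the other autosomes) and 53.8% of its 915 distal peaks (32.1% in the genome and 22.9% to 36.3% on the other autosomes). WT only peaks made up 15% of the 520 WT distal peaks, below the 30.7% of the genome and below all other autosomes (22.9% to 41.7%). At promoters, the WT only share was 5.50% of 309 peaks, against 8.6% in the genome. Here the chromosome did not stand alone, since 1 other autosome was lower.

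Most Kap1 KO only peaks of chromosome 18 were small. Their median score was 145 and their median width 1294 bp, while shared peaks had a median score of 1660 and a median width of 2411 bp in Kap1 KO. A score under 100 was found for 192 of the 528 (36.4%) and a score of at least 500 for 68 (12.9%). The same shares on the other autosomes, 38.9% and 11.5%, were close to these, while the number of such peaks relative to all was higher here. WT only peaks were of a like size, with a median score of 126 and a median width of 1190 bp.

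The median distance from a Kap1 KO only peak to the closest WT peak was 29163 bp. The closest case was a peak with a score of 95.78 upstream of March3 (chr18:57085376-57086125, mm9), 20 bp from a WT peak with a score of 979.38. Of the 528, 19 (3.6%) lay within 1 kb of a WT peak, 100 (18.9%) within 5 kb, and 183 (34.7%) were more than 50 kb away. The WT list was sparse on this chromosome (9.13 peaks per Mb), and these distances were not compared with those on other autosomes. Just inside the limit, the smallest overlap of a shared pair was 26 bp, between a Kap1 KO peak at 3100 that starts at chr18:35997682 and a WT peak at 211.98. Few peaks thus stood near the 1 bp limit that separates the classes.

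Distal Kap1 KO only peaks lay between genes in 302 of 492 cases (61.4%) and in introns in 148 (30.1%), while 219 of the 423 shared distal peaks of the Kap1 KO list lay between genes (51.8%). Their median distance to a transcript start was 28283 bp, against 22374 bp for shared distal peaks. The base composition of the mm9 sequence under them, which the rule did not use, was close to that of distal Kap1 KO only peaks elsewhere. The median GC content of Kap1 KO only distal peaks was 44.3% and the median ratio of observed to expected CpG was 0.165, against 44.2% and 0.165 on the other autosomes. At promoters, the median CpG ratio of Kap1 KO only peaks was 0.337 over 36 peaks, above the 0.205 of the same class on the other autosomes and below the 0.566 of shared promoter peaks of the chromosome.

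The surplus of Kap1 KO peaks relative to WT was not limited to a stretch of the chromosome. Divided into 9 steps, each of 10 Mb except for the last one, chromosome 18 had a Kap1 KO only count above the WT only count in all 9. The Kap1 KO only share was lowest, 33.0%, between 30 and 40 Mb, the step that holds the protocadherin cluster and the most peaks (264 in Kap1 KO and 205 in WT). It was highest, 59.6%, between 40 and 50 Mb, which was also where the WT only share reached its highest value, 23.7%. Leaving out any of the 9 steps kept the Kap1 KO only share of the chromosome between 41.0% and 45.2%.

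Where both genotypes had a peak, the peak was mostly higher and wider in Kap1 KO. Among the 738 overlapping pairs of chromosome 18, 682 joined exactly 1 peak of each list, and 436 of these had both scores below the ceiling. The Kap1 KO score was the higher one in 327 of the 436 pairs, or 75% (70.7% to 79.0%), while 39.2% of such pairs were higher in Kap1 KO in the genome and 26.0% to 49.3% on the other autosomes. The median score of the 436 pairs was 689 in Kap1 KO and 353 in WT. On the other autosomes the order was the reverse, with 387 in Kap1 KO and 489 in WT. By single autosome, their medians ran from 293 to 550 in Kap1 KO and from 355 to 755 in WT. Chromosome 18 was thus the highest in Kap1 KO and the lowest in WT.

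The median log2 ratio of the score, Kap1 KO over WT, was 0.70 (interval of the median 0.54 to 0.89), a 1.62-fold difference, and the other autosomes together had -0.32 (-0.93 on chromosome 4 to -0.02 on chromosome 3). All 18 were below 0. A score at least 2-fold higher in Kap1 KO was found in 184 pairs (42.2%, against 16.0% in the genome), and at least 2-fold lower in 32 pairs (7.34%, against 27%). At the ceiling, 170 further pairs had both scores, 76 had the Kap1 KO score alone and 0 had the WT score alone, whereas on the other autosomes 383 pairs had the Kap1 KO score alone and 2564 the WT score alone. Over all 682 pairs, with those at the ceiling kept, the Kap1 KO score was higher in 59.2% (26.0% on the other autosomes) and the median log2 ratio was 0.27 (0.0 on the other autosomes).

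Width, which has no ceiling, gave the same order. Peaks were wider in Kap1 KO in 540 of the 682 pairs, or 79.2% (75.9% to 82.2%), against 40.4% of the pairs of the genome and 21.9% to 49.6% on the other autosomes. The median log2 ratio of the width was 0.19 (0.17 to 0.22), or 1.14-fold, and -0.06 for the other autosomes together. The median width was 2380 bp in Kap1 KO, where single other autosomes had 2055 to 2291 bp. In WT it was 2018 bp, where they had 2145 to 2432 bp. At least 1.25-fold wider were 222 pairs (32.6%, against 13.4% in the genome), and at least 1.25-fold narrower were 32 (4.69%, against 19.3%). In addition, 23 Kap1 KO peaks each spanned 2 or more WT peaks, and 4 WT peaks spanned 2 or more Kap1 KO peaks.

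**Figure D2:**
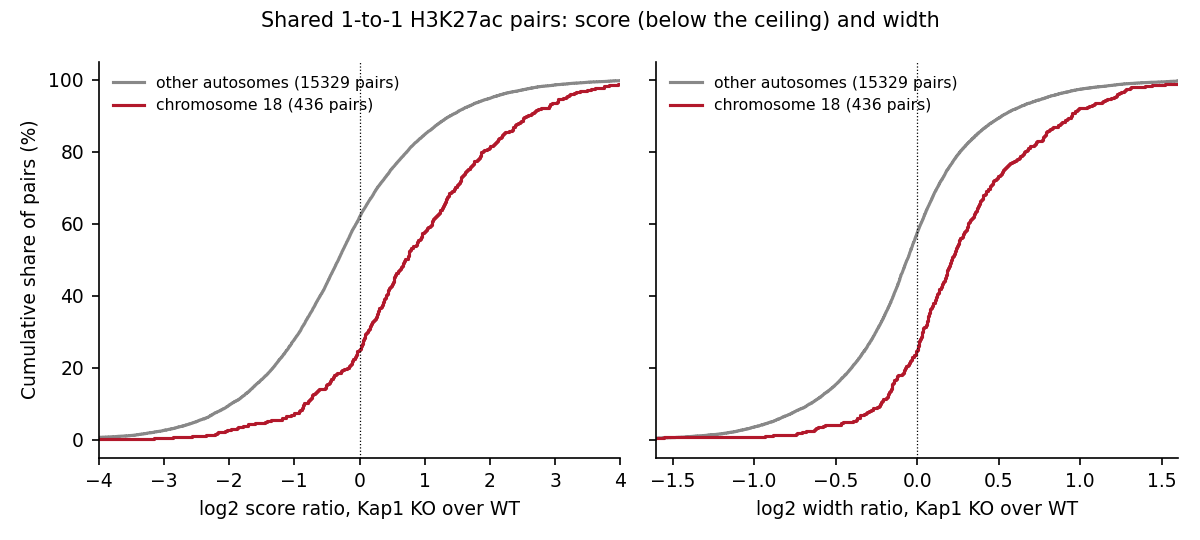
Cumulative share of shared 1-to-1 H3K27ac pairs (y axis, percent) by the log2 ratio of Kap1 KO over WT (x axes), for the score (left) and the width (right), both over pairs with scores below the ceiling. The curve of chromosome 18 lies to the right of that of the other autosomes in both panels, with medians of 0.70 against -0.32 for the score and 0.21 against -0.06 for the width.

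The shift was found at promoters and at distal places. For the 84 promoter pairs below the ceiling, the Kap1 KO score was higher in 61 (72.6%) and the median log2 ratio was 0.39 (0.19 to 0.50), against -0.53 on the other autosomes. For the 352 distal pairs, it was higher in 266 (75.6%) and the median was 0.89 (0.69 to 1.11), against -0.23. Measured from the level of the other autosomes, chromosome 18 was therefore displaced in the same direction in both places. The median was above 0 in all 9 steps along the chromosome, between 0.19 (70 to 80 Mb) and 1.41 (80 Mb to the end), and that of the width was between 0.11 and 0.28.

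The difference was present at low and at high scores. Pairs of chromosome 18 were divided by the geometric mean of their scores. The median log2 score ratio was 0.36 for 98 pairs between 50 and 200, 1.45 for 128 pairs between 200 and 500, 1.00 for 106 pairs between 500 and 1000, 0.54 for 78 pairs between 1000 and 2000 and 0.17 for 26 pairs between 2000 and 3100. On the other autosomes, all of these bands had a median below 0, from -0.46 to -0.14. The X chromosome, with a median of -0.27, was like the other autosomes in this measure.

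The 3 widest shared 1-to-1 peaks of chromosome 18 stood over genes of zinc finger proteins. Shared peaks outside the 1-to-1 pairs were wider, up to 23614 bp in Kap1 KO and 28162 bp in WT. The peak at Tshz1, a teashirt family transcription factor, was 10546 bp wide in Kap1 KO and 8838 bp in WT. That at Zfp516 was 9529 bp in Kap1 KO and 9278 bp in WT, and that at Zfp608 was 9470 bp in Kap1 KO and 8572 bp in WT. These 3 promoter peaks had scores of 3100 in both lists, and were 1.19-fold, 1.03-fold and 1.10-fold wider in Kap1 KO. The next widest were distal, and differed more. A peak whose closest gene was Ccbe1, which encodes a secreted protein of lymphatic development, was 7422 bp wide with a score of 3100 in Kap1 KO and 2366 bp wide with a score of 827.1 in WT (chr18:66486128-66493549 in Kap1 KO). A peak closest to Sh3tc2 was 7231 bp wide with a score of 3100 in Kap1 KO, and 4931 bp with 2303.16 in WT.

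Among shared promoter pairs below the ceiling, the ratio was highest at Gm17531 (638.66 in Kap1 KO and 64.17 in WT). It was followed by Nrg2, an EGF family ligand of ERBB receptors, with 1462.8 in Kap1 KO and 160.73 in WT, a 9.10-fold difference. A start of Kctd1 had 724.04 and 112.02, that of Ska1, a subunit of a microtubule-binding complex of the kinetochore, 1176.06 and 293.85, and that of the engulfment receptor gene Megf10 896 and 247.05. The 5 lowest ratios went the other way. Another start of Kctd1 had 75.56 in Kap1 KO and 447.88 in WT, so that 2 starts of this gene appear at both ends of the order. The other 4 were 2310002L13Rik (115.75 and 536.35), the pseudogene Amd-ps3 (81.57 and 348.44), Tnfaip8, a gene induced by TNF (434.44 and 1697.74), and Lipg, the gene of endothelial lipase (414.07 and 1508.3). For Kctd1 and Tnfaip8 these were not the strongest starts. The highest promoter score of Kctd1 was 3100 in both lists, and that of Tnfaip8 was 1727.08 in Kap1 KO and 1781.36 in WT.

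Distal pairs spread further. The highest score ratio among distal pairs below the ceiling was that of a peak closest to Pou4f3, the gene of a transcription factor of sensory neurons and hair cells, with 2118.73 in Kap1 KO and 73.57 in WT, a 28.8-fold difference (chr18:42563429-42566865 in Kap1 KO). The promoter of Pou4f3 had no peak in either list. The lowest ratio among them was that of a peak closest to Gm7670, with 81.51 in Kap1 KO and 1498.91 in WT (chr18:17047892-17048958 in Kap1 KO). A second distal peak closest to Gm7670 was among the 3 lowest as well, with 53.72 and 391.97. Single regions of chromosome 18 thus reached large differences in both directions.

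At promoters of protein-coding genes, chromosome 18 had 32 Kap1 KO only peaks, which belonged to 32 of its 517 such genes (6.19%), where 2.00% of the protein-coding genes of the genome had one. Hspa9 had 2 of these peaks, and Fhod3 and Gm9955 shared 1. Of the 32 genes, 20 had no WT promoter peak at any start, and 12 had one at another start or beside the one-sided peak. The class is thus a mixture of genes marked in Kap1 KO alone and genes marked in both lists with an additional Kap1 KO peak.

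The highest score of the 20 was 984.4 at Ccdc68, which encodes a protein of centriole appendages (chr18:70084126-70086170). The closest WT peak was 3666 bp away with a score of 1209.69, outside the promoter. It was followed by Asxl3, a relative of the Drosophila Additional sex combs gene and partner of the deubiquitinase BAP1, with 600.06 (chr18:22502322-22504138). The closest WT peak to that promoter was 449595 bp away, so that no WT peak was found in its wide surroundings. Ccdc11, a gene of motile cilia, had 531.2 (chr18:74444906-74446917), and Mocos, the molybdenum cofactor sulfurase, 474.83 (chr18:24811760-24813111). Slc27a6, a fatty acid transporter gene, had 414.06 (chr18:58714720-58716258), and Myo5b, an unconventional myosin of vesicle recycling, 304.75 at an internal start (chr18:74792589-74794234). The promoter peaks of Ccdc11 and Myo5b lie near each other on the chromosome.

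Lower scores were found at Gm4951 (267.94, chr18:60370793-60372362), at Ablim3, an actin-binding LIM protein gene (235.12, chr18:62070823-62071865), and at Csf1r, the receptor of macrophage colony-stimulating factor (229.28, chr18:61264692-61267246). Csf1r is a marker of macrophages, and of the other markers of blood cells, Cd68 had a promoter peak in both lists, with a lower score in Kap1 KO (118.21) than in WT (258.57), and the other 2 found had none. A part of macrophages in this result was not tested. The remaining genes with a Kap1 KO promoter peak alone were Mc5r, Mro, Fhod3, Gm9955, Jakmip2, Lims2, Camk4, Pcdhb4, Pcdhb2, Pcdhb17 and Pcdhb18, with scores between 56.47 and 204.91.

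The 12 other genes had a WT promoter peak as well. Tcf4, a basic helix-loop-helix transcription factor gene, had a Kap1 KO only peak of 551.33 at an internal start (chr18:69839559-69841418), whereas its highest promoter peak was at 3100 in both lists. Hspa9, the mitochondrial HSP70, had Kap1 KO only peaks of 377.47 and 90.91 next to a promoter at 3100 in both lists. The Kap1 KO only peaks of the tyrosine phosphatase gene Ptpn2 (280.43, chr18:67847570-67849184) and of Ndst1, a heparan sulfate modifying enzyme (249.69, chr18:60870200-60872746), also belonged to genes with a WT promoter peak of 3100. At 3110002H16Rik, the peak of 232.05 lay 9353 bp from a WT promoter peak of 1945.62. Zbtb7c, a zinc finger gene with a BTB domain, had a Kap1 KO only peak of 476.04 at one start (chr18:76218258-76220059) and a WT only peak of 100.35 at another (chr18:75979053-75980085). The rest were Tnfaip8, Diap1, March3, Nedd4l, Lmnb1 and Pcdhgc5, with Kap1 KO only peaks between 77.03 and 197.51.

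**Figure D3:**
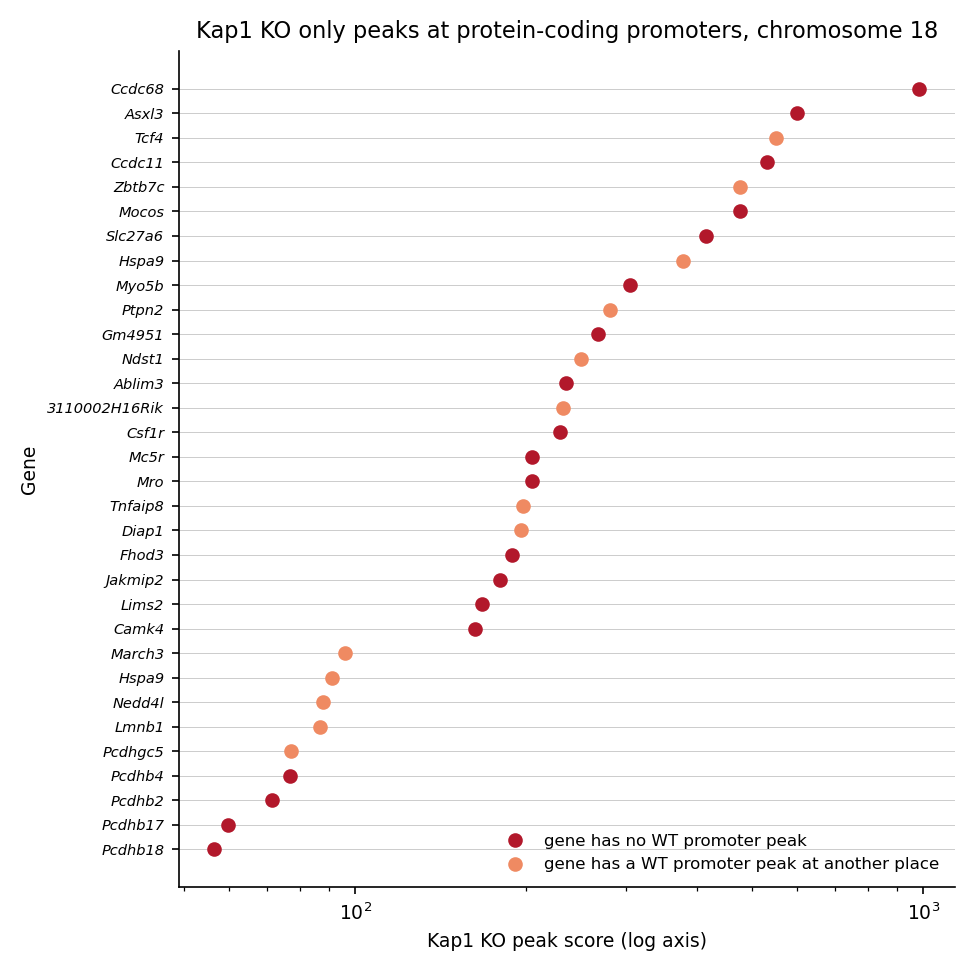
Score (x axis, log scale) of the 32 Kap1 KO only H3K27ac peaks at protein-coding promoters of chromosome 18, each a point in 1 library, ordered by score and labelled with 1 gene per peak (y axis). The scores run from 56.47 at Pcdhb18 to 984.4 at Ccdc68, and the colour separates genes with and without a WT promoter peak at another place.

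WT only peaks stood at 14 protein-coding promoters, or 14.7% of the 95 (8.30% to 23.5%), against 11.1% of WT only peaks on the other autosomes. Among WT promoter peaks of any gene, the WT only share was 5.50% here and 8.6% in the genome. The highest, 2344.1, was at Onecut2, a homeodomain transcription factor gene (chr18:64500871-64503798), 531 bp from a Kap1 KO peak of 3100 that marks the same promoter. Ccdc112 (669.89, chr18:46470410-46471802) and Colec12, a collectin scavenger receptor gene (668.84, chr18:9707065-9708495), had no Kap1 KO promoter peak. Slc14a1, a urea transporter gene (366.88), and Cdo1, the gene of cysteine dioxygenase (126.6), did not have one either. By contrast, Nfatc1, a transcription factor regulated by calcineurin, had a WT only peak of 395.65 that was 522 bp from a Kap1 KO peak, and Arhgap26 had one of 106.33 at an internal or alternative start, both with a highest Kap1 KO promoter score of at least 3100.

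Outside promoters, the highest Kap1 KO only score was 3152.1, above the ceiling, at chr18:74526072-74530063, between genes and 70527 bp from the closest protein-coding start, that of Myo5b. The Kap1 KO only promoter peak of Myo5b stood elsewhere, at an internal start (chr18:74792589-74794234), downstream of the start at 74600590 to which this distance was measured. The next was 2383.34 at chr18:38329646-38333072, 29745 bp from Pcdh1, a protocadherin outside the cluster without a promoter peak in either list. A score of 2199 was found in an intron of Rab27b, a small GTPase of secretion (chr18:70229231-70231296), and 2016.99 in an intron of Jakmip2 (chr18:43794339-43796525), the promoter of which was also Kap1 KO only. The fifth, 1983.62, lay 6155 bp from Snx24, a sorting nexin gene (chr18:53394558-53399161), and 5000 bp from a WT peak. For Jakmip2, and for Myo5b at its internal start, the distal and the promoter peak were thus one-sided in the same genotype. Rab27b and Snx24, by contrast, had a promoter peak in both lists.

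The highest distal WT only scores were lower. A score of 1447.05 was found in an intron of Fam38b (chr18:63309466-63311266), the gene of the mechanically gated channel Piezo2, which had no promoter peak in either list. A peak of 1177 at chr18:11355210-11358074 had Gata6, a transcription factor of endoderm and heart, as its closest gene at 302702 bp. The others had scores of 912.37 (closest gene Cdo1, whose promoter peak was also WT only), 705.08 (closest gene Rbbp8) and 653.03 (closest gene Arhgap12). Gata6, Rbbp8 and Arhgap12 had a promoter peak in both lists.

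Counted by gene, 282 of the 517 protein-coding genes of chromosome 18 had a promoter peak in both lists, 20 in Kap1 KO alone (3.87%, against 1.36% in the genome), 9 in WT alone (1.74%, against 2.61% in the genome) and 206 in neither. The 9 with a WT peak alone were Ankrd29, Cabyr, Ccdc112, Cdo1, Colec12, Gm10036, Nme5, Slc14a1 and Zfp474, and the WT peak of the last one overlapped a Kap1 KO peak that lay beyond 1 kb of the start. In 67 of the genes with both, the highest promoter score was below the ceiling in both lists, and it was higher in Kap1 KO in 48, with a median log2 ratio of 0.34. On the other autosomes it was higher in Kap1 KO in 499 of 2525 such genes, with a median of -0.56. Where the ceiling hides the ratio, single genes still stood apart. Chosen after their values were seen, Ccbe1 had 3100 in Kap1 KO and 260.37 in WT, and Sema6a, a transmembrane semaphorin of axon guidance, 3100 and 289.27. The predicted gene Gm17732 had 3111.61 and 75.64.

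**Figure D4:**
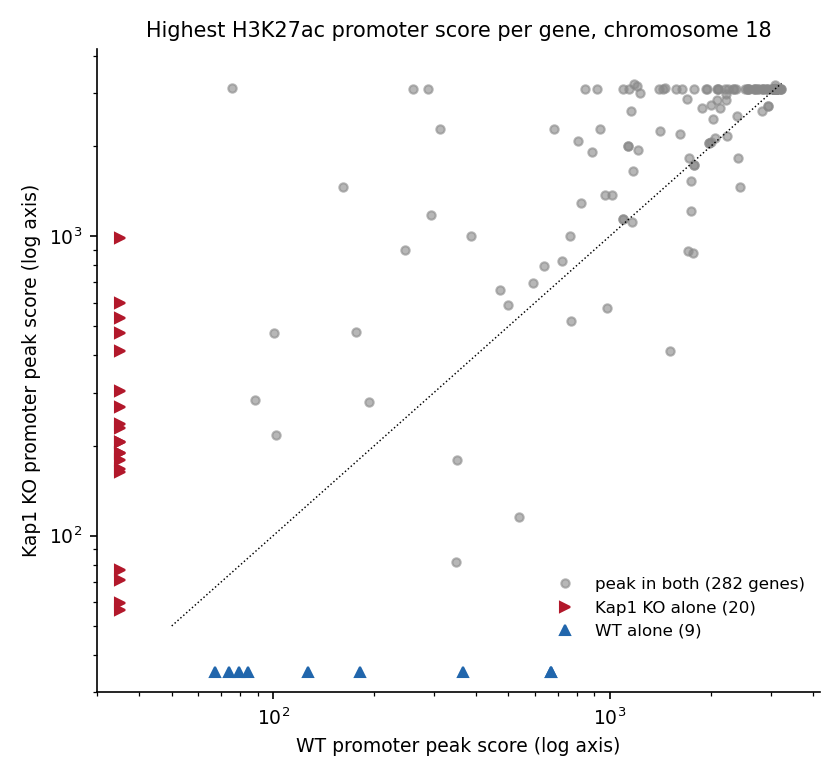
Highest H3K27ac promoter score of each protein-coding gene of chromosome 18 in WT (x axis) and Kap1 KO (y axis), both on log scales, with the diagonal dotted. Genes with a peak in 1 list alone are drawn as triangles at the edge, 20 for Kap1 KO and 9 for WT, and many of the 282 genes with both are at the ceiling of 3100.

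Gene lists of chromosome 18 were read by their promoter peaks. Of all 517 protein-coding genes of the chromosome, 54.5% had a promoter peak in both lists and 39.8% in neither. Of the 282 genes with both, 215 were at the ceiling in at least 1 list. The score was higher in Kap1 KO in 48 of the other 67. Of 15 genes in a list of fibroblasts and mesenchyme that also held genes of general function, 11 had a promoter peak in both lists. Of the 11, 9 were at the ceiling in at least 1 list. These included Pdgfrb, the PDGF receptor beta, Lox, the collagen cross-linking lysyl oxidase, Cdh2, the N-cadherin gene, and Zeb1, a transcription factor of mesenchyme, all at 3100 in both. The other 2 genes with both peaks, Mapre2, a microtubule end-binding protein gene (3004.97 in Kap1 KO and 1232.02 in WT), and Fech, the last enzyme of haem synthesis (2682.05 and 2121.79), were higher in Kap1 KO. Mapre2 and Fech are genes of general function, so their scores do not rank the genotypes for fibroblast genes. Ablim3 had a peak in Kap1 KO alone and Colec12 in WT alone, and Fgf1 and Fbn2 had none.

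All 5 genes of the TGF-beta list that were found, Smad2, Smad4, Smad7, Pias2 and Nedd4l, had promoter peaks of 3100 in both lists, so that the score cannot rank the genotypes. Of 11 genes of the cell cycle and stress, all had a peak in both lists. Ska1 was below the ceiling in both, and in Kap1 KO the score reached the ceiling where it did not in WT for Cdc25c, the phosphatase that activates CDK1 (3118 and 1455.52), Cdc23, a subunit of the anaphase-promoting complex (3100 and 2520.61), and Hdac3, a histone deacetylase (3100 and 2698.08). On the whole chromosome, 76 shared 1-to-1 pairs had the Kap1 KO score alone at the ceiling and 0 the WT score alone. This direction is thus not particular to these genes. No desmosomal cadherin gene, out of 9, had a promoter peak in either list.

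Of 13 zinc finger protein genes, 11 had a promoter peak in both lists. Zfp35 was the only one of these with both scores below the ceiling, with 1290.03 in Kap1 KO and 819.27 in WT. Zfp521 had 3100 in Kap1 KO and 2950.44 in WT, Zfp474 had a peak in WT alone (181.11), and Zscan30 had none. Kap1 KO only promoter peaks were found at 0 of the 13, where 6.19% of all protein-coding genes of the chromosome had one, and the list does not include the zinc finger gene Zbtb7c, which had one.

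Chromatin genes differed in direction. Of 14 genes, 13 had a promoter peak in both lists, and the 2 with both scores below the ceiling were lower in Kap1 KO. Mbd1, the gene of a methyl-CpG binding protein, had 1452.04 in Kap1 KO and 2431.61 in WT, and Cxxc5, a CXXC zinc finger gene, 1823.74 and 2407.69. With the ceiling reached in Kap1 KO, Hdac3 (3100 and 2698.08) and Cxxc1, the gene of a CpG-binding protein of the SET1 complex (3100 and 2578.09), were higher in Kap1 KO. Asxl3 was the remaining one, with a peak in Kap1 KO alone. Of 14 genes of neurons, endocrine cells and hepatocytes, 3 had a peak in both lists, 1 in WT alone and 10 in neither.

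The clustered protocadherins are neuronal cell adhesion genes that are arranged in tandem between 37089939 and 38001527. This span had 16 Kap1 KO peaks, 5 of them Kap1 KO only (42.6% on the whole chromosome). It had 12 WT peaks, 1 of them WT only (11.5% on the whole chromosome). These counts take in other genes of the span, such as Taf7, which had a promoter peak in both lists. Of 24 genes of the list, 5 had a promoter peak in both lists, 4 in Kap1 KO alone (3.87% of all protein-coding genes of the chromosome did) and 15 in neither. The 4 with both scores below the ceiling were all higher in Kap1 KO, as were 48 of the 67 such genes of the whole chromosome. Pcdhb5 had 997.25 in Kap1 KO and 386.02 in WT, Pcdhb16 had 590.27 and 496.91, Pcdhb21 had 284.81 and 88.26, and Pcdhb22 had 480.07 and 176.52. The Kap1 KO only peaks of Pcdhb2, Pcdhb4, Pcdhb17 and Pcdhb18 were weak, from 56.47 to 76.8, and would not have passed a score of 80. The annotation joins most alpha and gamma members into a few gene entries, and the beta genes are similar in sequence, so that the assignment of reads among them is uncertain.

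The H3K9me3 lists, which were not used to choose the peaks, differed on chromosome 18 too. The chromosome had 81 H3K9me3 peaks in WT and 80 in Kap1 KO, or 98.8 Kap1 KO peaks for every 100 in WT, where the other autosomes together had 29.3 (7.12 on chromosome 4 to 78.8 on chromosome 10). Its WT count was again below those of all 18 other autosomes, which had 146 to 2043 peaks, while 6 of them had fewer Kap1 KO peaks. Of its 81 WT peaks, 11 overlapped a Kap1 KO peak (13.6%, against 3.07% on the other autosomes). In both marks, the number of Kap1 KO peaks relative to WT was thus higher on chromosome 18 than on any other autosome. Both marks share the MEF genotypes and their total input controls, so they are not independent readouts. The input libraries were not analysed here, so the amount of DNA of this chromosome in either cell line is unknown and its part in these values was not tested.

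**Figure D5:**
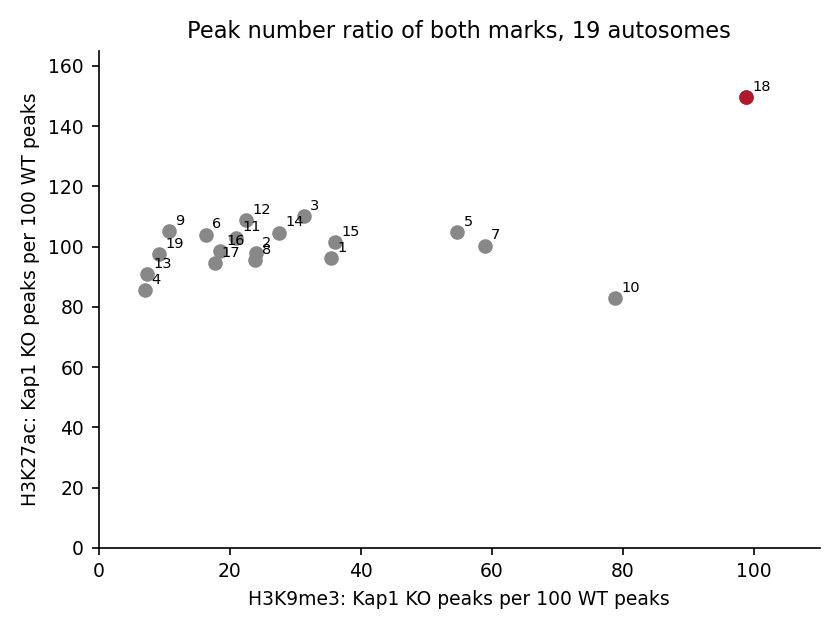
Number of Kap1 KO peaks per 100 WT peaks for H3K9me3 (x axis) and H3K27ac (y axis), 1 point per autosome, labelled with its number, and 1 library per mark and genotype. Chromosome 18 (red) has the highest value on both axes, 98.8 for H3K9me3 and 149.6 for H3K27ac.

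Few of the one-sided H3K27ac peaks lay on H3K9me3 of the WT. Of the 492 distal Kap1 KO only peaks of chromosome 18, 2 overlapped a WT H3K9me3 peak (0.407%, interval 0.0493% to 1.46%), where 370 of 6837 did on the other autosomes (5.41%, 4.89% to 5.97%). Of the 36 at promoters, 0 did (upper bound 9.74%), against 32 of 580 elsewhere (5.52%). Chromosome 18 has few WT H3K9me3 peaks to overlap with, and the intervals of the promoter class include the value of the other autosomes.

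KAP1 peaks of Hepa 1.6 cells, a mouse hepatoma line, were also compared, although they come from another cell type and from cells with KAP1. They were found at 107 of the 289 shared promoter peaks of chromosome 18 (37.0%, 31.4% to 42.9%), against 29.3% on the other autosomes, and at 1 of the 36 Kap1 KO only promoter peaks (2.78%, 0.0703% to 14.5%), against 8.62%. At distal places they were found at 25 of 492 Kap1 KO only peaks (5.08%, 3.31% to 7.41%), 30 of 423 shared peaks (7.09%, 4.84% to 9.97%) and 3 of 78 WT only peaks (3.85%, 0.80% to 10.8%). The interval of the Kap1 KO only distal peaks includes the 6.45% of the same class on the other autosomes. With 5.29 KAP1 peaks per Mb, chromosome 18 was near the median of 5.49 over the other autosomes.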

How the data were processed

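ChIP-seq was performed on 1 library per mark and genotype. The authors aligned reads to mm9 by Bowtie2 2.2.1 and used MACS 1.4, with total input as control, and deposited each peak with a score. The study states a cutoff score of 80, but the MEF lists go down to 50 and all their peaks were used. The list of SETDB1 and the inputs were not used. GENCODE for mm9 gave 86992 transcript starts and 22380 protein-coding genes. Scores of 3100 and above were treated as the ceiling. Overlaps, distances, Clopper-Pearson intervals and intervals of the median from binomial order statistics were computed with Python 3.11.15, numpy 2.4.6, pandas 2.3.3 and scipy 1.17.1, and plots were drawn with matplotlib 3.10.9. The classes were checked with bedtools 2.31.1 and were identical, and the steps were tested on simulated data. No test between genotypes was run. Named genes were the 15 highest Kap1 KO only promoters (the rest by name), the 8 highest WT only promoters, the 5 highest distal peaks of each one-sided class, the 5 widest shared 1-to-1 pairs, the 5 highest and lowest promoter score ratios, and members of gene lists. The extreme distal score ratios were added after their values were seen. The members and lists were chosen with earlier results of these data known. Alternatives changed the score limit, the overlap, the promoter window and the handling of the ceiling.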

Additional observations from a re-analysis of the deposited data

How the results depend on the processing

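No paired analysis was possible because each genotype had 1 library, and for the same reason no replicate could be left out. Of 82 alternatives over 8 results of chromosome 18, 67 stayed within the 95% interval of the reported value. The others moved as follows. With the upper 50% of both lists by score, the Kap1 KO only share was 34.3% and the WT only share 5.24%. With an own score of at least 80 against the complete other list, they were 36.6% and 9.34%, and with at least 500, chosen after seeing the data, 11.3% and 2.49%. A promoter window of 5 kb gave a promoter share of 17.2% for Kap1 KO only and 28.4% for WT only peaks. With starts of protein-coding genes alone, the promoter share of Kap1 KO only peaks was 6.06%, above the 5.41% of the other autosomes, whereas it was below them in the count reported. In promoter pairs alone, the median log2 ratio was 0.39 for the score and 0.15 for the width, and 83.3% of pairs were wider in Kap1 KO. In distal pairs alone, the median log2 ratio of the width was 0.24. With pairs at the ceiling kept, 59.2% had a higher Kap1 KO score and the median log2 ratio was 0.27. With these pairs left out, 75.2% were wider in Kap1 KO. In all 57 alternatives of the Kap1 KO only share, the score and the width, chromosome 18 was above the 18 other autosomes, and in 14 of 15 alternatives of the WT only share it was below them. The exception was the score of at least 500, where 2 autosomes were lower. Leaving out each of the 9 steps along the chromosome, also chosen after seeing the data, kept the WT only share between 10.5% and 12.0%, the share with a higher Kap1 KO score between 72.9% and 77.5%, and the wider share between 77.1% and 81.3%. The runs with a step left out are counted among the 82, 57 and 15 alternatives. They left the other autosomes unchanged and dropped a small part of chromosome 18, so a change of rank was unlikely in them. Signal under the peak threshold cannot be seen in these lists, and without replicates these values describe 2 libraries.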
